A study of Mus musculus with 2 samples.

Results

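The 7 genes Csf1r, Csf2ra, Csf2rb, Csf3r, Flt3, Kit and Il7r encode receptor chains through which blood and immune cells sense growth factors. They were taken by symbol from the 32285 gene rows of a single-cell RNA-seq library of the adult C57BL/6 mouse thymus. Per the labels, the organ was digested with enzymes, CD64+ cells were taken by FACS (a flow cytometry sort), and a 3′ library was made on the 10x Genomics Chromium system and sequenced on a NovaSeq instrument. The series holds 2 such libraries, from 2021 and from 2024, with the same strain, tissue and sort and no treatment, and the labels give no number of mice. Gene levels come from the 2021 library alone, so that there was 1 library, no replicate and no test.

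CSF1R, FLT3 and KIT are receptor tyrosine kinases. They bind macrophage colony-stimulating factor (CSF1) or IL-34, FLT3 ligand and stem cell factor, in that order, and are known for their parts in the survival of macrophages, the supply of dendritic cells (DCs) and the upkeep of early progenitors. The other chains have no kinase of their own and signal through bound JAK kinases. CSF2RA binds GM-CSF and pairs with CSF2RB, the common beta chain that also serves IL-3 and IL-5, CSF3R binds G-CSF as a pair of like chains, and IL7R pairs with the common gamma chain for IL-7 or with CRLF2 for TSLP. In the thymus, IL-7 is known above all as a growth factor of early T cell progenitors.

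Each captured transcript molecule was counted once through its unique molecular identifier (UMI). With 8534578 UMIs over 3214 barcodes, 3185 cells were kept, with a median of 2169 UMIs. They were placed in 10 groups by clustering with the receptors and 43 related genes left out of the variable genes, so that no group was defined by a receptor. The labels call the cells macrophages, but 456 of the 3185 (14.3%) were macrophage-like by their markers. At resolution 1.0, 232 of these 456 fell into an unnamed cluster led by Cxcl9 and Retnla, in which 2 monocyte markers (Ccr2 and Plac8) were raised, 184 cells bore the macrophage-like name, and under a stricter cell filter 83 did. There were 658 conventional DC-like, 464 monocyte-like, 366 T lineage-like, 334 neutrophil-like, 303 NK and ILC-like (natural killer and innate lymphoid) and 108 mature DC-like cells. Another 3 clusters stayed unnamed and are called by their leading genes: 216 Igkc-led cells with markers of B and plasma cells, 177 cells led by Cstdc4, Ifitm1 and Retnlg (the Retnlg-led cluster), and 103 cells led by division genes such as Birc5 (the dividing cluster). At resolution 2.0, 55 of the 658 conventional DC-like cells fell in a cluster named plasmacytoid DC-like by its markers, so that group is mixed. Because cells entered through a CD64 sort, cells of the other classes are those that passed that gate, and free RNA in the suspension can add UMIs to any droplet.

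All 7 receptors were detected. Csf1r gave 1356 UMIs in 764 cells, Csf2ra 935 in 691 cells, Csf3r 521 in 344 cells, Csf2rb 502 in 402 cells, Flt3 406 in 300 cells, Kit 203 in 162 cells and Il7r 153 in 112 cells. The share of cells with a UMI of at least 1 receptor ranged from 4.62% of NK and ILC-like cells to 81.6% of the dividing cluster. Depth differs between the groups (a median of 965.5 UMIs in T lineage-like cells and 5972 in the dividing cluster), so each cell was also thinned to 1000 UMIs, in 1 random draw. That left 2602 cells: 648 conventional DC-like, 430 monocyte-like, 413 macrophage-like, 293 neutrophil-like, 194 Igkc-led, 181 T lineage-like, 148 NK and ILC-like, 105 mature DC-like, 102 dividing and 88 Retnlg-led. After thinning, the share with any of the 7 was 71.6% in the Retnlg-led cluster, 54.7% in macrophage-like, 48.8% in monocyte-like, 47.6% in mature DC-like and 37.5% in conventional DC-like cells. It was 31.4% in the dividing cluster, 29% in neutrophil-like cells, 10.8% in Igkc-led cells and 6.08% in both T lineage-like and NK and ILC-like cells.

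In the GRCm38 annotation, the build named in the submitters' processing notes as mm10, Csf2ra (ENSMUSG00000059326) lies on chr19:61223957-61228429 on the minus strand and Csf3r (ENSMUSG00000028859) on chr4:126024550-126044440 on the plus strand. Flt3 (ENSMUSG00000042817, chr5:147330741-147400489, minus strand) and Kit (ENSMUSG00000005672, chr5:75574916-75656722, plus strand) share a chromosome, as do Il7r (ENSMUSG00000003882, chr15:9505788-9530176, minus strand) and Csf2rb (ENSMUSG00000071713, chr15:78325752-78353847, plus strand). Csf2rb2, which encodes an IL-3-specific beta chain in mice, lies 20030 bases from Csf2rb. The pair share 28.8% of the 30-base words of the Csf2rb transcript, but 1.49% of those in its last 500 bases, the end that 3′ libraries read.

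PU.1, encoded by Spi1, is a transcription factor of myeloid cells, and Spi1 was among the 3 genes whose levels followed those of Csf2ra and of Csf2rb most closely (values below). Its core motif was therefore looked for on both strands, as GAGGAA or TTCCTC, in RefSeq promoters of build GRCm38.p6 that run from 250 bases before to 50 bases after the gene start. This motif was chosen after the levels were known. Of 32851 promoters, 28.3% held at least 1 match and 4.82% at least 2. Of the 5 receptors with an entry in the promoter table, Csf2ra held 2 matches, Csf3r and Kit 1 each, and Flt3 and Il7r none. Csf2rb had no entry, and of the 2 promoter records of Kit only the first was read. The 30 bases around the matches are shown 5′ to 3′ on the gene's strand, with the motif in capitals.
Csf2ra, chr19:61228412-61228441, minus strand: cctgcagatGAGGAAGAGGAAgcgggagac
Csf3r, chr4:126024561-126024590, plus strand: cctccttcctgaGAGGAAggggctgtctat
Kit, chr5:75574752-75574781, plus strand: ggagagtgctagGAGGAAgaggatccaggg
The Csf2ra matches, next to each other, begin 14 and 8 bases before the RefSeq start, the Csf3r match 86 bases and the Kit match 223 bases before it. The annotation used for the gene positions above sets other starts, 126024550 for Csf3r and 61228429 for Csf2ra. By those, the Csf3r stretch and part of the Csf2ra stretch lie inside the gene. A match is a string of letters and was not tested as a binding site.

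Levels are given as CPM, a gene's UMIs for every 1e6 UMIs counted in that group, with exact 95% Poisson intervals. Shares of cells carry exact 95% Clopper-Pearson intervals. Where no cell had a UMI, the limit given in place of an interval is 3 counts of the total. For shares it bounds the share of cells with a UMI at this depth, not the share that express the gene. All of these cover counting error within this library only.

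**Figure D1:**
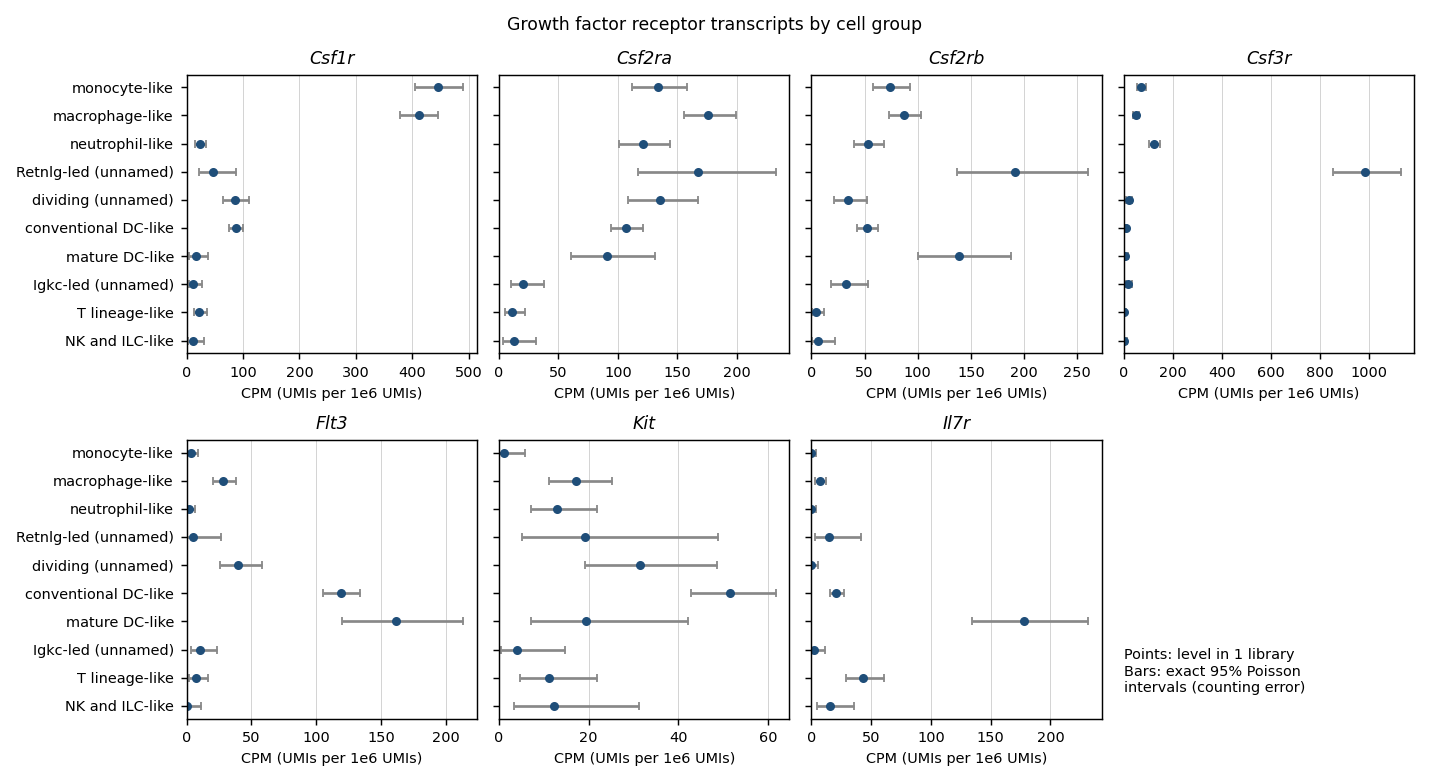
Level of each receptor transcript (CPM, linear axes that differ between panels) in the 10 cell groups of the 2021 library, with exact 95% Poisson intervals as bars. Csf1r stood highest in monocyte-like and macrophage-like cells, Csf3r in the Retnlg-led cluster, Flt3 in mature and conventional DC-like cells, Kit in conventional DC-like cells and Il7r in mature DC-like cells, while Csf2ra was spread over 7 groups.

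Csf1r (ENSMUSG00000024621), the receptor of CSF1 and IL-34, was high in monocyte-like and macrophage-like cells and several times lower elsewhere. Its level was 446 CPM in monocyte-like cells (435 UMIs, interval 405 to 490) and 411 in macrophage-like cells (600 UMIs, 379 to 445), which overlap. Conventional DC-like cells followed at 87.2 (201 UMIs, 75.5 to 100.1), 4.72-fold below macrophage-like cells, beside the dividing cluster at 85.0 (63.9 to 111). These 4 groups were thus in a high and a middle pair. The Retnlg-led cluster had 47.8 CPM (22.9 to 87.9), an interval that overlaps both of the middle pair. Neutrophil-like cells had 23.2, T lineage-like cells 22.2, mature DC-like cells 16.2, Igkc-led cells 12.3 and NK and ILC-like cells 12.2. From the Retnlg-led cluster down, each neighbour overlapped the next in its interval. Mature DC-like cells were at the low end, with 5 UMIs in 108 cells, while conventional DC-like cells were not.

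A Csf1r UMI was present in 54.7% of monocyte-like and 60.1% of macrophage-like cells (medians of 2005.5 and 2632 UMIs). After thinning, these shares were 33.3% (28.8 to 37.9%) and 32.0% (27.5 to 36.7%). In T lineage-like cells, taken as a class that should lack the myeloid receptors, the share was 3.55% in all cells (median of 965.5 UMIs) and 0.552% (0.0140 to 3.04%) after thinning. Conventional DC-like cells lay between, at 8.33% after thinning (6.32 to 10.7%), above that background.

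Within the monocyte-like group, Csf1r was uneven. At a clustering resolution of 2.0, added after the data had been seen, monocyte-like cells led by Ace, Adgre4 and Treml4 (154 cells), genes of patrolling monocytes, had 741 CPM of Csf1r (635 to 860). Those led by F13a1 (268 cells), a gene of classical monocytes, had 328 (285 to 376), and the intervals do not overlap. An unnamed cluster of 36 cells led by Pf4 and Prg4, all from the monocyte-like group, had 609 (457 to 794). In it 13 of 15 macrophage markers were raised, and its leading genes held 4 cavity macrophage markers and 1 monocyte marker. The monocyte-like group thus holds more than 1 kind of cell. Macrophage clusters led by Ccl12 and C1qa (101 cells, 460 CPM, 390 to 539) and by Gdf15 and Vcam1 (87 cells, 338 CPM, 275 to 412) overlapped each other narrowly. The largest piece of the macrophage-like class, in an unnamed cluster of 234 cells led by Cxcl9 and Ly6i of which 223 were macrophage-like, had 433 (388 to 481). A cluster of 34 macrophage-like cells led by Apoc1, with a median of 662.5 UMIs, gave only 6 Csf1r UMIs (200 CPM, 73.2 to 434).

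Among DC clusters at that resolution, the one led by Mmp12 and Ccl17 (154 cells, with Epcam and Itgae among its leading genes) had 141 CPM of Csf1r (111 to 175). The cluster led by Cd209e and Cd209d (172 cells) had 97.3 (74.6 to 125), and that led by Xcr1 (124 cells), the chemokine receptor of cross-presenting DCs, had 26.5 (14.1 to 45.2). Csf1r was therefore higher in the Mmp12-led and Cd209e-led cells than in Xcr1-led cells by non-overlapping intervals. In neutrophil-like cells, 22 of the 25 Csf1r UMIs lay in a cluster led by Prg2 and Elane, called myeloid progenitor-like by its markers at resolution 1.0.

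**Figure D2:**
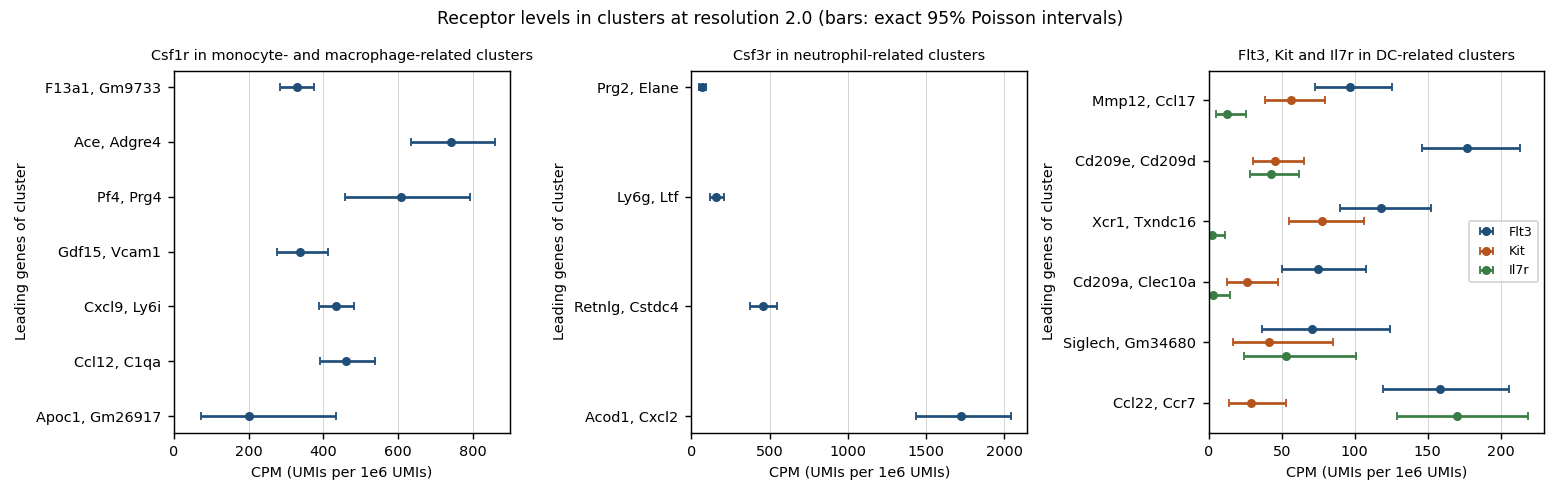
Receptor levels (CPM, linear axes) in clusters at resolution 2.0, named by 2 leading genes, with exact 95% Poisson intervals as bars. Csf1r was higher in the Ace-led than in the F13a1-led monocytes, Csf3r stepped up from 66.8 in the Prg2-led to 1722 in the Acod1-led cluster, and Flt3, Kit and Il7r ranked the DC clusters differently.

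Csf2ra (ENSMUSG00000059326), the GM-CSF-binding chain, was the most evenly spread receptor across myeloid cells. Macrophage-like cells had 176 CPM (257 UMIs, 155 to 199), and the level was 167 in the Retnlg-led cluster (117 to 233), 135 in the dividing cluster (108 to 167) and 133 in monocyte-like cells (111 to 158). Neutrophil-like cells had 121 (101 to 143), conventional DC-like cells 107 (94.2 to 121) and mature DC-like cells 90.6 (60.2 to 131). Each of these 7 groups overlapped the next in the order. Then came a gap of 4.43-fold, to 20.5 in Igkc-led cells, 12.2 in NK and ILC-like cells and 11.1 in T lineage-like cells, the last with 8 UMIs in 366 cells. With a median-of-ratios scaling in place of total UMIs the gap remained, but the order at the top became the Retnlg-led cluster (241), neutrophil-like cells (191) and macrophage-like cells (145).

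After thinning, shares of cells with a Csf2ra UMI ranged from 9.52% in mature DC-like cells to 16.5% (13 to 20.4%) in macrophage-like cells among those 7 groups, and 1.66% of T lineage-like cells had one. Without thinning, the dividing cluster had the largest share, 53.4% at a median of 5972 UMIs, against 36.6% of macrophage-like cells. After thinning it had 15.7%, close to the macrophage-like value. In DC clusters at resolution 2.0, Csf2ra was highest in the Cd209a-led and Clec10a-led cells (130 cells, 161 CPM, 123 to 206), above the Xcr1-led (87.5, 63.3 to 118) and the Cd209e-led cells (76.9, 56.9 to 102).

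Csf2rb (ENSMUSG00000071713), the signalling chain shared by GM-CSF, IL-3 and IL-5, had the same groups at the bottom but another order at the top. The Retnlg-led cluster had 191 CPM (40 UMIs, 137 to 260) and mature DC-like cells 139 (43 UMIs, 101 to 187), which overlap. Macrophage-like cells had 87.0 (72.5 to 104), monocyte-like cells 73.9 (57.8 to 93.1), neutrophil-like cells 53.0 and conventional DC-like cells 52.0 (43.1 to 62.2), and each of these overlapped the group before it. The dividing cluster had 34.6 and Igkc-led cells 32.7 (18.7 to 53.2), a level 5.35-fold above the 6.11 of NK and ILC-like cells, whose interval of 0.740 to 22.1 nevertheless overlaps. T lineage-like cells had 3 UMIs (4.17 CPM). A Csf2rb UMI was found in 19.3% of thinned Retnlg-led cells (11.7 to 29.1%), 15.2% of mature DC-like cells (8.97 to 23.6%) and none of 181 T lineage-like cells, which allows up to 1.66% with a UMI.

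The Retnlg-led value holds more than 1 kind of cell. With its 6 cells that had at least 3 UMIs of mast cell and basophil markers set apart, the other 171 cells had 163 CPM of Csf2rb (112 to 229), and the 6 held 7 of the 40 UMIs. At resolution 2.0 an 11-cell basophil-like cluster, led by genes that included Mcpt8 and Il4, had 11 Csf2rb UMIs in 6 cells (971 CPM, 485 to 1737). It had no UMI of Csf2ra or Csf3r, and 9 UMIs of Csf2rb2 in 5 cells. IL-3 is the best known growth factor of basophils. In so few cells the 0 UMIs allow up to 265 CPM of Csf2ra, so its absence was not shown. The Retnlg-led cluster is shallow, and 89 of its 177 cells have fewer than 1000 UMIs. Under a stricter filter on cells (at least 1000 UMIs and 500 genes) the nearest cluster, of 223 cells and mixed with other neutrophils, then had 67.2 CPM of Csf2rb, while keeping the receptors among the variable genes gave a 95-cell cluster at 339.

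GM-CSF signals when its binding chain and the beta chain are on 1 cell, so their transcripts were counted together. Counts of cells with 2 transcripts, here and below, are without thinning unless stated. Deeper cells can give UMIs of more genes, which can raise such shares. Of the 691 cells with a Csf2ra UMI, 126 (18.2%) also had a Csf2rb UMI, as had 12.6% of all kept cells. These 126 were 31.3% of the 402 cells with Csf2rb. In macrophage-like cells 40 cells had both, 42.6% of the 94 with Csf2rb, where 36.6% of the class had Csf2ra. In monocyte-like cells 11 had both, 17.5% of the 63 with Csf2rb, where 23.1% of the class had Csf2ra. In these 2 classes the share among cells with Csf2rb was thus near that of the whole class. After thinning, both chains were seen in 24 of 2602 cells (0.922%). Cells with 1 chain detected cannot be taken to lack the other.

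Csf3r (ENSMUSG00000028859), the G-CSF receptor and a hallmark of neutrophils, had the widest gap of the 7 between its highest and next group. The Retnlg-led cluster held 206 of its 521 UMIs (39.5%) in 177 cells and stood at 985 CPM (855 to 1129). Neutrophil-like cells, led by the granule genes Camp, Ltf and Ngp, had 125 (134 UMIs, 104 to 148), 7.91-fold lower. At resolution 2.0, 88 and 78 of the 177 Retnlg-led cells fell in 2 clusters that were also named neutrophil-like. This gap thus lies largely among neutrophil-like cells. Monocyte-like cells had 69.8 (54.2 to 88.5) and macrophage-like cells 48.0 (37.4 to 60.6), which overlap each other but not neutrophil-like cells. The dividing cluster had 18.9, Igkc-led cells 16.4, conventional DC-like cells 9.11, mature DC-like cells 3.23 and T lineage-like cells 1.39. No UMI was found in NK and ILC-like cells (0 of 303 cells, which allows up to 0.990% of cells with a UMI).

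A Csf3r UMI was present in 58.2% of Retnlg-led cells at a median of 999 UMIs and in 29.6% of neutrophil-like cells at 2376. After thinning the shares were 50% of 88 cells (39.1 to 60.9%) and 14.3% of 293 (10.5 to 18.9%), against 0.552% of T lineage-like cells. The draw came out high for the Retnlg-led cluster, for which the share expected over all draws is 40.9%, while it is 14.6% for neutrophil-like cells. By either value the shallower group had the larger share. Thinned shares were 7.21% in monocyte-like (4.95 to 10.1%) and 5.57% in macrophage-like cells (3.56 to 8.24%), above the T lineage-like interval of 0.0140 to 3.04%. In the 21 UMIs of conventional DC-like cells, 8 came from 1 cell.

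The finer clusters set the neutrophil values in an order. At resolution 2.0, myeloid progenitor-like cells led by Prg2 and Elane (99 cells), genes of early granules, had 66.8 CPM of Csf3r (47.7 to 90.9). Neutrophil-like cells led by Ly6g and Ltf (160 cells) had 158 (118 to 206), those led by Retnlg and Cstdc4 (153 cells) 455 (376 to 545), and those led by Acod1 and Cxcl2 (88 cells) 1722 (1438 to 2046). No neighbouring intervals overlap. The median depth of these 4 clusters was 5975, 1964.5, 1601 and 750 UMIs, so that the level rose as depth fell, and the part of depth in this order was not tested. Over the same clusters Csf2ra stayed at 95.2 (72.1 to 123), 155, 156 and 200 CPM (112 to 330), a much smaller spread.

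The Retnlg-led value also depends on which cells the cluster takes in. It was 222 CPM in the mixed cluster of 223 cells under the stricter filter and 1525 in the 95-cell cluster with the receptors among the variable genes. It was 1018 (883 to 1166) without the 6 cells with basophil markers, which had no Csf3r UMI.

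**Figure D3:**
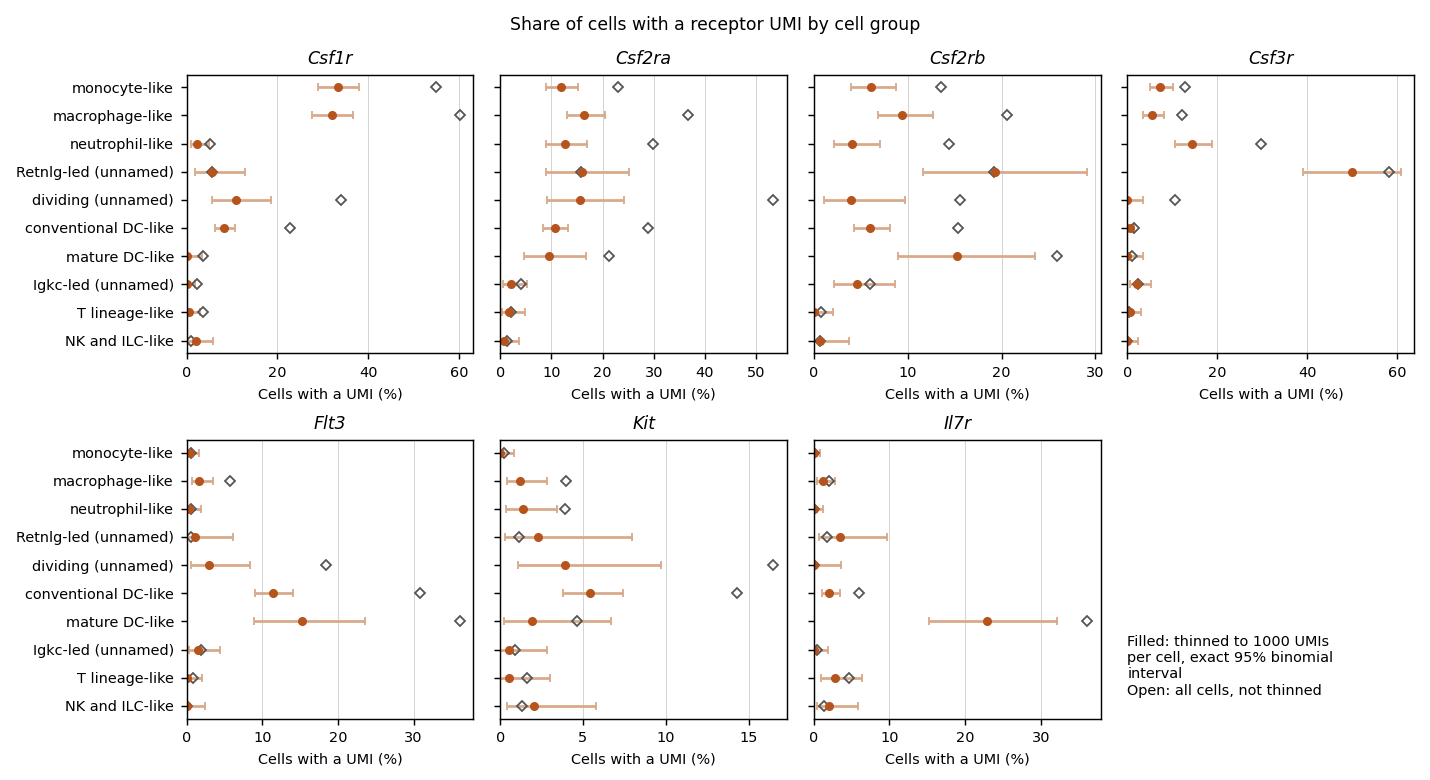
Share of cells with at least 1 UMI of each receptor in the 10 groups, in percent: filled points after thinning every cell to 1000 UMIs (bars: exact 95% binomial intervals), open points for all cells without thinning. The Retnlg-led cluster had the largest Csf3r share with and without thinning (50 and 58.2%), and in the deep dividing cluster the Csf2ra share was 15.7% with and 53.4% without thinning.

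Flt3 (ENSMUSG00000042817), the receptor of FLT3 ligand, marked the DCs. Mature DC-like cells had 162 CPM (50 UMIs, 120 to 213) and conventional DC-like cells 119 (274 UMIs, 105 to 134), which overlap, and the latter held 67.5% of all Flt3 UMIs. The dividing cluster had 39.4 (25.5 to 58.1) and macrophage-like cells 28.1 (20.2 to 38.1). Igkc-led cells had 10.2 CPM, T lineage-like cells 6.94, the Retnlg-led cluster 4.78, monocyte-like cells 3.08 and neutrophil-like cells 1.86, and from the dividing cluster down each overlapped the next. NK and ILC-like cells had none (0 of 303 cells, or up to 0.990% with a UMI).

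After thinning, 15.2% of mature DC-like (8.97 to 23.6%) and 11.4% of conventional DC-like cells (9.07 to 14.1%) had a Flt3 UMI. Neutrophil-like cells, taken as the background class for Flt3, Kit and Il7r, had 0.341% (0.00864 to 1.89%), or 0.599% without thinning at a median of 2376 UMIs, against 30.9% and 36.1% of conventional and mature DC-like cells at 3431 and 2829.5. The macrophage-like share of 1.69% (0.684 to 3.46%) overlapped the background, although its CPM did not (0.225 to 6.72 in neutrophil-like cells). Of the 41 Flt3 UMIs in macrophage-like cells, at most 5 came from 1 cell.

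Kit (ENSMUSG00000005672), the receptor of stem cell factor, was highest in conventional DC-like cells. These had 51.6 CPM (119 UMIs, 42.7 to 61.7), 58.6% of the gene's UMIs, and the dividing cluster had 31.5 (19.2 to 48.6). Mature DC-like cells had 19.4 (7.12 to 42.2), the Retnlg-led cluster 19.1, macrophage-like cells 17.1 (11.1 to 25.3), neutrophil-like cells 13 (7.11 to 21.8), NK and ILC-like cells 12.2, T lineage-like cells 11.1 and Igkc-led cells 4.09. Each neighbour in that order overlapped, and the interval of conventional DC-like cells overlapped those of the dividing and Retnlg-led clusters. Monocyte-like cells had 1 Kit UMI in 464 cells (1.03 CPM), the lowest level of the 10 groups.

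The thinned share of conventional DC-like cells with a Kit UMI was 5.40% (3.79 to 7.43%), above the 1.37% of neutrophil-like cells (0.373 to 3.46%). All other groups had shares that overlapped this background. Without thinning the values were 14.3% and 3.89%. Neutrophil-like cells include the Prg2-led myeloid progenitor-like cells, which held 9 of the 14 Kit UMIs at resolution 1.0, so this background may include true transcripts.

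The DC clusters at resolution 2.0 ranked differently for these kinase receptors. Flt3 was highest in the Cd209e-led cluster (177 CPM, 146 to 213), followed by mature DC-like cells (158, 119 to 206), the Xcr1-led cluster (118, 89.6 to 153), the Mmp12-led cluster (96.6, 72.8 to 126), the Cd209a-led cluster (75.2, 50.4 to 108) and 56 plasmacytoid DC-like cells led by Siglech (71.0, 36.7 to 124). Kit was highest in the Xcr1-led cluster (77.3, 54.7 to 106), then in the Mmp12-led (56.2, 38.5 to 79.4), Cd209e-led (45.5, 30.5 to 65.4), Siglech-led (41.4), mature DC-like (28.8) and Cd209a-led cells (25.9, 12.4 to 47.7). For Flt3 the interval of the Cd209e-led cluster lay above those of the Mmp12-led and Cd209a-led ones. For Kit that of the Xcr1-led cluster lay above the Cd209a-led one. The Cd209a-led cells, high in Csf2ra, were thus low in both Flt3 and Kit among DC clusters.

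Dividing DCs carried both receptors. A cluster of 44 cells that combined Birc5 with Xcr1 had 75.7 CPM of Flt3 (48.0 to 114) and 62.5 of Kit (37.6 to 97.6), each overlapping the Xcr1-led cluster. It came wholly out of the dividing cluster, whose other cells were mostly in a cluster led by histone genes and F13a1 (60 cells), which had 135 CPM of Csf1r (99.4 to 180). In conventional DC-like cells, 34 of the 94 cells with Kit also had Flt3 (36.2%), where 30.9% of the class had Flt3. In the same class 45 cells had Csf1r and Flt3, 30.2% of the 149 with Csf1r, again close to the 30.9%.

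Il7r (ENSMUSG00000003882), the alpha chain for IL-7 and TSLP, was highest, among the 10 groups, not in the T lineage but in mature DC-like cells. Mature DC-like cells had 178 CPM (55 UMIs, 134 to 232) and T lineage-like cells 43.1 (31 UMIs, 29.3 to 61.1), 4.13-fold lower. Conventional DC-like cells had 20.8 (48 UMIs, 15.3 to 27.6), below T lineage-like cells without overlap. NK and ILC-like cells had 15.3, the Retnlg-led cluster 14.3, macrophage-like cells 6.85 and Igkc-led cells 2.05. No Il7r UMI was found in 464 monocyte-like, 334 neutrophil-like or 103 dividing cells, which allows up to 0.647%, 0.898% and 2.91% of cells with a UMI. After thinning, 22.9% of mature DC-like (15.2 to 32.1%), 2.76% of T lineage-like (0.903 to 6.33%) and 2.01% of conventional DC-like cells (1.07 to 3.41%) had an Il7r UMI, against none of 293 neutrophil-like cells. Over all draws, the expected shares of the first 2 groups are 17.2% and 4.88%.

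The T lineage-like value was carried by few cells. Its 31 UMIs lay in 17 cells, and 8 were in 1 cell. At resolution 2.0 a cluster of 89 T cells led by Tnfrsf4, with Icos, Ikzf2 and Ctla4 among its leading genes, had 209 CPM (23 UMIs in 11 cells, 132 to 313). Thymocytes led by Dntt had 14.2 (5.70 to 29.2). Without a Dntt-led cluster of 135 dividing cells the T lineage-like level was 110. Tnfrsf4, Icos, Ikzf2 and Ctla4 are known together from regulatory T cells, but no list for that class was used and the cluster keeps its broader name.

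Among DCs, Il7r was concentrated in some clusters. Mature DC-like cells at resolution 2.0 had 170 CPM (129 to 219), Siglech-led plasmacytoid DC-like cells 53.3 (9 UMIs, 24.4 to 101) and the Cd209e-led cluster 42.4 (27.9 to 61.6), whereas the Xcr1-led and Cd209a-led clusters had 1 UMI each (2.03 and 2.59 CPM). Il7r was also found with Flt3: in conventional DC-like cells 22 of the 39 cells with Il7r had Flt3 (56.4%), where 30.9% of the class did. In mature DC-like cells it was 17 of 39 (43.6%), where 36.1% of the class had Flt3. The Cd209e-led cluster was high in both, and its part in the share of the whole class was not tested. These shares are without thinning, and depth differs between cells.

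**Figure D4:**
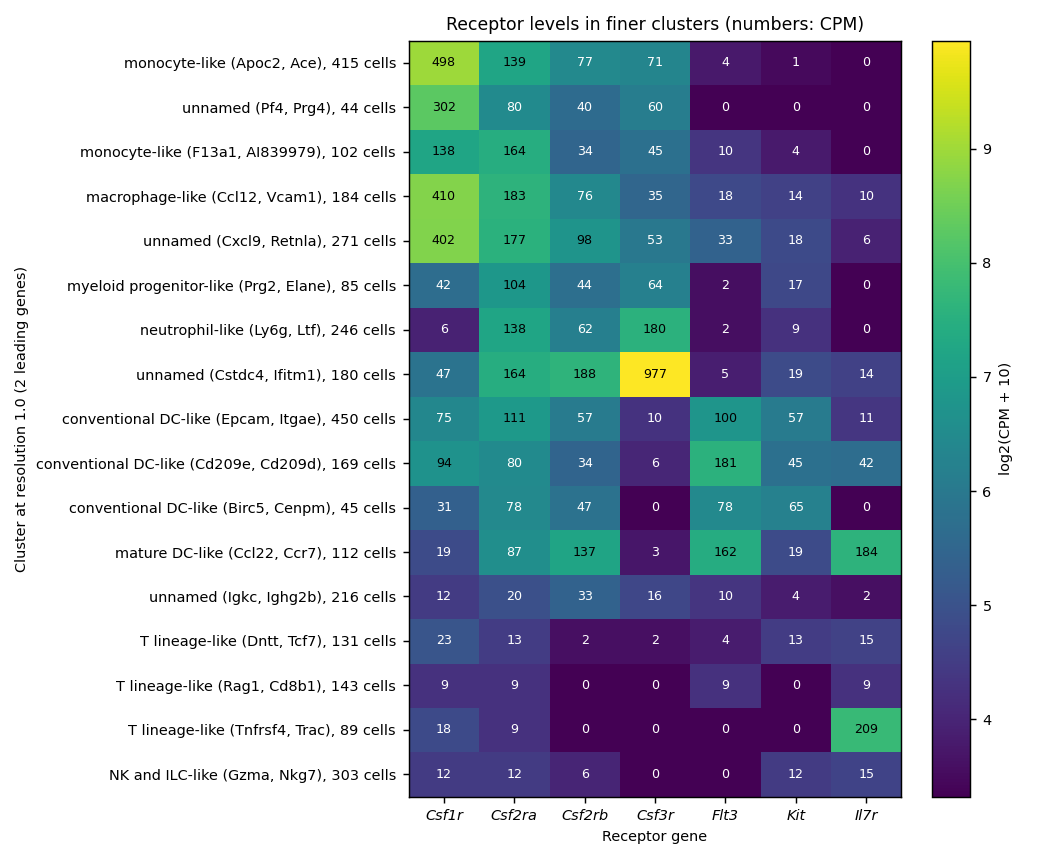
Level of the 7 receptors (columns) in the 17 clusters at resolution 1.0 (rows, named by 2 leading genes), coloured by log2(CPM + 10) with the CPM printed in each cell of the grid. Csf1r filled the monocyte and macrophage rows, Csf3r peaked in the Cstdc4-led row at 977, Flt3 and Kit followed the DC rows, and Il7r was highest in the Tnfrsf4-led (209) and Ccl22-led rows (184).

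Each group was then set against all other kept cells, with 10 CPM added on both sides, and a gene was called higher at a log2 ratio of at least 1. All 7 receptors were among the 11718 genes with at least 10 UMIs that entered. In mature DC-like cells 3 of 7 were called (Csf2rb 1.18, Flt3 1.68 and Il7r 3.10 on the log2 scale), against 5.45% of all genes. In conventional DC-like cells 2 were called (Flt3 2.04 and Kit 1.39), against 1.42%, and in the Retnlg-led cluster 2 (Csf2rb 1.61 and Csf3r 4.37), against 6.55%. Csf1r alone was called in macrophage-like cells (1.84, background 3.52%) and in monocyte-like cells (1.79, background 2.4%), and Csf3r alone in neutrophil-like cells (1.12, background 4.15%).

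In T lineage-like cells Il7r was the 1 receptor called, at 1.05 and so just past the threshold, against 15.7% of all genes, a share near the 1 in 7. None was called in NK and ILC-like cells (background 5.32%), in the dividing cluster (2.8%) or in Igkc-led cells (2.6%). The median log2 ratio of the 7 receptors was -2.48 in NK and ILC-like, -2.39 in T lineage-like and -1.49 in Igkc-led cells, where the median over all genes was -0.11, 0.26 and -0.20. Median-of-ratios scaling shifts these groups by between -0.47 (T lineage-like) and 0.66 (neutrophil-like) on the log2 scale, and leaves the leading group of 6 of the receptors in place, Csf2ra being the exception given above.

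Set out by cell group, macrophage-like and monocyte-like cells combined Csf1r with both GM-CSF chains and a low level of Csf3r. Of the 55 macrophage-like cells with Csf3r, 35 also had Csf1r (63.6%), where 60.1% of the class had it, and of 59 such monocyte-like cells 34 did (57.6%, against 54.7%). Neutrophil-like and Retnlg-led cells combined Csf3r with the GM-CSF chains. Neutrophil-like cells had little Csf1r, while the Csf1r interval of Retnlg-led cells overlapped that of conventional DC-like cells. Conventional DC-like cells, a group that includes plasmacytoid DC-like cells, had Flt3, Kit, the GM-CSF chains and some Csf1r. Mature DC-like cells had Flt3, Il7r and the GM-CSF chains, with Csf1r at the level of lymphoid cells. These are transcripts, and the receptor protein on the cell surface was not measured.

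Partner chains and ligands were read from lists of related genes. Of 10 ligand genes, 3 had at least 10 UMIs: Csf1 (72), Flt3l (69) and Tslp (27). Kitl had 5, Il7 had 2 and Il34 had 1, while Csf2, Csf3, Il3 and Il5 had none. Transcripts of these last 7 ligands were thus not detected, or barely so, in the sorted cells at this depth. Of the 72 Csf1 UMIs, 45 lay in the Retnlg-led cluster (215 CPM, 157 to 288), where Csf1r was at 47.8. At resolution 2.0 the Csf1 level was 467 (325 to 650) in the Acod1-led neutrophils, whose Csf3r was the highest. Flt3l was highest in NK and ILC-like cells (12 UMIs, 36.7 CPM, 19.0 to 64.1), which had no Flt3 UMI.

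**Figure D5:**
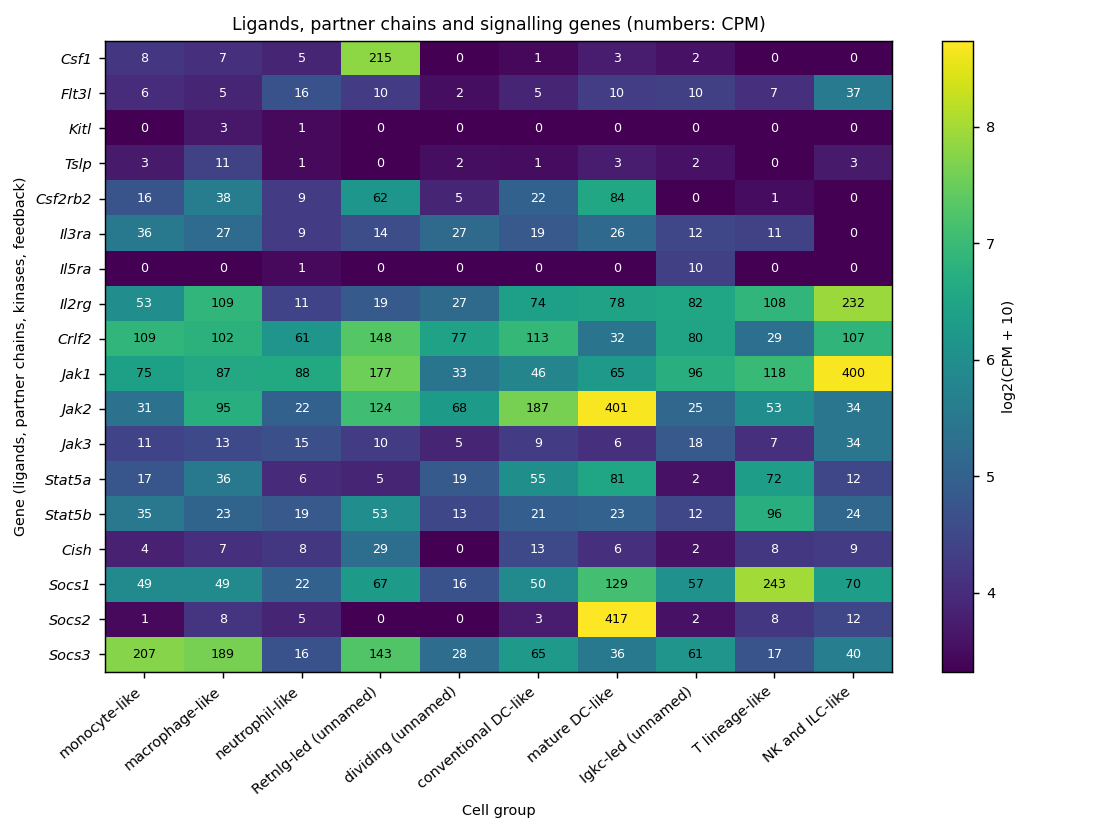
Level of ligands, partner chains, JAK and STAT genes and feedback inhibitors (rows) in the 10 cell groups (columns), coloured by log2(CPM + 10) with CPM printed. Csf1 stood out in the Retnlg-led cluster (215), Jak2 (401) and Socs2 (417) in mature DC-like cells and Jak1 (400) in NK and ILC-like cells.

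Of the 5 partner chains, 4 had at least 10 UMIs. Il2rg, the common gamma chain that completes the IL-7 receptor, was highest in NK and ILC-like cells (232 CPM, 183 to 291), which had little Il7r, and stood at 108 in T lineage-like and 77.6 in mature DC-like cells. Crlf2, which completes the TSLP receptor, was at 148 in the Retnlg-led cluster, 113 in conventional DC-like and 32.3 in mature DC-like cells. Without thinning, of all 112 cells with Il7r, 27 also had Il2rg (24.1%, against 16.6% of all kept cells) and 23 had Crlf2 (20.5%, against 19.4%). Csf2rb2, the mouse IL-3 beta chain, followed Csf2rb, with 84.1 CPM in mature DC-like cells (54.9 to 123) and 62.1 in the Retnlg-led cluster (33.1 to 106). In the latter, 6 of its 13 UMIs came from the 6 cells with basophil markers, and the other 171 cells had 34.6 (13.9 to 71.2), a log2 ratio of 0.59 and no longer a 2-fold call. Of 4 partner chains 1 was called in mature DC-like cells (5.45% of all genes were), in the Retnlg-led cluster (6.55%) and, as Il2rg, in NK and ILC-like cells (5.32%).

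Of 7 JAK and STAT genes, mature DC-like cells had 2 called higher, where 5.45% of all genes were: Jak2, the kinase bound by the beta common chain, at 401 CPM (334 to 478), and Stat5a at 80.9 (52.3 to 119). Conventional DC-like cells had Jak2 alone called (187 CPM, 170 to 206, background 1.42%). NK and ILC-like cells had Jak1 and Jak3, kinases of receptors that contain the gamma chain, at 400 (335 to 475) and 33.6 (16.8 to 60.2), against a background of 5.32%. T lineage-like cells had Stat5b alone, a share near their background of 15.7%. Macrophage-like, monocyte-like and neutrophil-like cells had none of 7. The median log2 ratio of the list in mature DC-like cells was 0.10, where that of all genes was -0.29.

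Of 10 feedback inhibitors, mature DC-like cells had 2 called higher (background 5.45%) and 5 called lower. Socs2, a cytokine-induced inhibitor, was at 417 CPM there (348 to 496), with a UMI in 67 of 108 cells, and at no more than 12.2 in any other group, so that 129 of its 165 UMIs lay in mature DC-like cells. NK and ILC-like cells also had 2 of 10 called higher, Spry2 among them (background 5.32%), and the Retnlg-led cluster had 1 (6.55%). Socs3 was called in monocyte-like (207 CPM, 180 to 238) and macrophage-like cells (189, 167 to 213), 1 of 10 in each against 2.4% and 3.52% of all genes. Socs1 was called in T lineage-like cells (243, 208 to 282), and this 1 of 10 is below their background of 15.7%. Of 11 adaptors and kinases downstream of the kinase receptors, 2 were called higher in monocyte-like cells (background 2.4%). One of them was Lyn, a SRC-family kinase, at 388 CPM (350 to 429). NK and ILC-like, T lineage-like and neutrophil-like cells had 1 of 11 called each (backgrounds 5.32%, 15.7% and 4.15%), and macrophage-like cells none (3.52%). Of the same 11, mature DC-like cells had none higher (background 5.45%) and 6 lower. The share of all genes called lower was not computed, so the 5 and 6 lower calls have no background beside them. The median log2 ratio of all genes in mature DC-like cells was -0.29.

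Across the 17 clusters at resolution 1.0, the genes whose log2(CPM + 10) followed each receptor most closely were named by Pearson's r among 5942 genes. These clusters share 1 library and differ in depth, so r is a description. For Csf1r they were Plxnb2 (0.959), Clec4a1 (0.951) and Tifa (0.942). For Csf2ra they were Spi1 (0.949), Mefv (0.932) and Ifitm2 (0.928), and for Csf2rb Myadm (0.918), Skap2 (0.910) and Spi1 (0.907). Spi1 encodes PU.1, whose core motif is shown above for Csf2ra, Csf3r and Kit, while Csf2rb had no promoter entry. For Csf3r they were Cd300lf (0.963), Clec4e (0.962) and Cd300lb (0.954).

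The other lists held some genes known from DCs and T cells. For Flt3 the closest were Zbtb46 (0.936), a transcription factor of conventional DCs, Tnni2 (0.936) and Adam23 (0.934). For Kit, values were lower, with Sept3 at 0.817, Ffar4 at 0.797 and Wdfy4 at 0.779, the last a gene needed for cross-presentation by DCs. For Il7r they were Arhgap31 (0.872) and the TNF receptor genes Tnfrsf4 (0.868) and Tnfrsf18 (0.856). Among the receptors themselves, Csf2ra and Csf2rb were the closest pair (0.878), followed by Flt3 and Kit (0.738), while Csf3r and Il7r were the most opposed (-0.41).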

How the data were processed

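Per the file headers, the deposited values are raw UMI counts per gene and barcode, made by the authors with Cell Ranger 6.0.0 (2021 library) and 8.0.0 (2024 library). The submitters' processing notes name build mm10, and whether intronic reads were counted is not given in the sources used here. The 2024 library (2815 barcodes, 24569270 UMIs, 33696 gene rows) gives no gene level, as no gene or barcode list was used for it, and barcodes shared between the libraries could not be counted. Year is a batch of 1 library each.

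Of the 2021 barcodes, 3188 passed the filter (500 or more UMIs, 300 or more genes, mitochondrial share of 10% or less). Scrublet called 3 doublets (0.0941%), which were removed, so doublets may remain. From 2000 variable genes, 30 components and 15 neighbours, Leiden clustering at resolution 0.5 (scanpy 1.11.5) gave 12 clusters. A cluster was named where at least 3 listed markers were raised 2-fold and no other class had more markers among its 10 leading genes. A rule added after the data had been seen also asked for 1 own marker among those 10, without which the dividing cluster would be conventional DC-like. The Retnlg-led cluster stayed unnamed because the mast cell and basophil list had the largest share of raised markers (7 of 8) but none among the leading genes. At resolution 2.0, 88 and 78 of its cells fell in clusters named neutrophil-like and 11 in a mast cell and basophil-like cluster. The study's own names may be others.

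UMIs were summed per group, and for shares cells were thinned without replacement in 1 draw, with the expected share over all draws computed beside it. No p-value was computed. The calls were tested on simulated data. The members, the lists and the motif were chosen with earlier results of these data known. The named genes are the 7 receptors, the 3 genes most like each (at least 50 CPM in a cluster and 30 UMIs in all) and the most abundant genes of each list. A gene of these lists is not reported here. Less abundant list genes and the clusters at resolution 2.0 were named after their values were seen. Alternatives were other cell filters, doublet rules, variable genes, resolutions, seeds, scalings and thinning depths.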

Additional observations from a re-analysis of the deposited data

How the results depend on the processing

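No paired analysis was possible because gene levels come from 1 library, and for the same reason no replicate could be left out. Of the recomputed levels, 61 stayed within the counting interval of the reported value and 12 moved. Csf1r in monocyte-like cells was 371 CPM with doublets kept, 371 with median-of-ratios scaling, 358 with the receptors kept among the variable genes and 363 at resolution 1.0, settings under which 464 to 569 cells bore the name. Median-of-ratios scaling gave 145 for Csf2ra in macrophage-like cells, and for the Retnlg-led cluster 275 for Csf2rb and 1416 for Csf3r. With the receptors among the variable genes these last 2 were 339 and 1525, and under the stricter filter 67.2 and 222, in clusters of 95 and 223 cells. Without the Dntt-led cluster, Il7r in T lineage-like cells was 110.

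Of the recomputed shares, 63 stayed within the interval and 21 moved, most with the thinning depth. Without thinning, at 2000 UMIs and at 500 UMIs, the shares were 54.7%, 45.5% and 23.7% for Csf1r in monocyte-like cells, 36.6%, 28.6% and 8.11% for Csf2ra in macrophage-like cells, and 14.3%, 8.32% and 2.58% for Kit in conventional DC-like cells. Flt3 in mature DC-like cells had 36.1% without thinning and 29.8% at 2000 UMIs, and Il7r there 36.1% without thinning, 12% at 500 UMIs and 11.5% under the stricter filter. In the Retnlg-led cluster, Csf2rb had 7.69% at 2000 UMIs (13 cells), 7.91% at 500 UMIs, 50% with the receptors among the variable genes and 7.17% under the stricter filter. Csf3r there had 37.8% with no cell filter, 61.1% with the receptors kept and 23.3% under the stricter filter. Cells with both GM-CSF chains were 3.96% without thinning and 1.83% at 2000 UMIs. With 1 CPM added in place of 10, 7 of the 21 genes named as most like a receptor stayed among the 3, the 11 calls of receptors stayed 11, and 9.98% of genes were called over the 10 groups in place of 4.99%. Levels under about 10 CPM rest on few UMIs in the smaller groups, and their order is not resolved.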

Other observations

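A few further values were chosen after they were seen, and those of Spry2 and Cbl belong to list calls counted above. Spry2, an inhibitor of receptor kinase signalling, stood at 486 CPM in NK and ILC-like cells (159 UMIs, 413 to 568) and at no more than 38.2 in the other groups, in cells with little of any of the 7 receptors. Tslp, the other ligand of IL7R, had 11 of its 27 UMIs in the 87 macrophage-like cells led by Gdf15 and Vcam1 (37.6 CPM, 18.8 to 67.2). Of 8 Csf3r UMIs in the 56 plasmacytoid DC-like cells, all 8 were in 1 cell. Cbl, which encodes a ubiquitin ligase that acts on CSF1R and KIT, was highest in T lineage-like cells (325 CPM, 285 to 369), where both receptors were low.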
